A study of Homo sapiens with 9 samples.

Results

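Gene expression after 24 h of a protease inhibitor mix was compared with that after 4 h in HT1080 cells, an established human fibrosarcoma line. The members were the 3 arrays titled for 24 h and the 3 titled for 4 h, 6 of the 9 arrays in the series, and 8838 expressed genes of 19775 measured ones. A gene counted as expressed when its mean intensity over the 9 arrays was 50 or more. The cells were seeded on a fibrillar bovine collagen gel at 1.7 mg/ml, in medium with 10% serum, and had adhered for 24 h before any treatment. Both treated groups received the same mix of GM6001 at 100 µM, pepstatin A at 50 µM, E64 at 250 µM, and aprotinin and leupeptin at 2 µM each, as the treatment protocol and the title state it. The design text and the treatment label speak of a kinase inhibitor cocktail instead, a conflict that the labels do not settle; the protocol was followed here. The other 3 arrays carried vehicle alone, and they served here only to place the 4 h and 24 h levels. The titles name the vehicle group, but neither the vehicle nor the time of its harvest is given in the sources used here, so the time in culture and the time under the mix cannot be told apart. The series calls its replicates biological. The line is a single tumour line, and each value is an average over a culture, so that a change in every cell and a change in the share of cells cannot be told apart.

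The mix covers the main protease classes. GM6001 is a hydroxamate that chelates the zinc of matrix metalloproteinases, E64 and leupeptin block cysteine proteases such as the cathepsins, pepstatin A blocks aspartic proteases, and aprotinin blocks serine proteases. Cells that meet a signal or a stress often answer in waves. Immediate-early and NF-kB target genes rise within hours and are shut off by inhibitors that they themselves induce, while genes of metabolism, protein degradation and matrix change later. A later sample can therefore differ from an earlier one in several ways. A gene can come back to where it started, stop short of that, pass it, keep moving in the first direction, or move for the first time. These possibilities were separated by a ratio on the log2 scale, the part of the change from 4 h to 24 h that undid the change from untreated to 4 h. A ratio between 0.75 and its reciprocal was called a return and one above that a partial return. Values between 0.25 and 0.75 were called a change beyond the untreated level, those from -0.25 to 0.25 a new late change, and lower ones a continued change. The ratio shares the 4 h arrays with the comparison that selected the genes, so it is a description without a test.

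Every array has the same trimmed mean of 100, and values are given as linear intensity. Log2 and fold changes are on the scale of log2(intensity + 16), which understates the change of dim genes. Median intensity per array lay between 14.2 and 18.2. The number of arrays, 3 in each group, limits the precision. Mesenchymal markers fitted the labelled line: vimentin, VIM, measured between 8526.1 and 11713 on the 9 arrays, and 10 of 16 mesenchymal genes were expressed. None of the 12 epithelial markers measured was expressed, and their summed intensity was 99.9 to 120.5 at 4 h and 81.5 to 140.3 at 24 h. Of the leukocyte markers 2 of 10 were expressed (CSF1R and CD3D, with PTPRC at a mean of 7.2), and of the endothelial markers 2 of 10 (ROBO4 and TIE1, with CDH5 at a mean of 4.3). The leukocyte markers summed to 106.9 to 210.8 at 4 h and 148.5 to 180.0 at 24 h, and the endothelial ones to 449.3 to 553.2 and 496.1 to 639.6.

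Replicate 2 of the 4 h group stood apart from the other 4 h arrays. On the first principal component of the expressed genes, which held 37.2% of the variance, it lay at -8.35, whereas replicates 1 and 3 lay at 6.42 and 12.2 and the 24 h arrays between 11.4 and 13.3. The second component, with 18.9% of the variance, placed all 3 arrays of 4 h between 10.1 and 14.0 and those of 24 h between -11.0 and -7.02, with the untreated arrays at -6.02 to -0.80. The spike-in controls, bacterial poly-A RNAs put into each sample before labelling, averaged 10.20 ± 0.22 at 4 h and 10.64 ± 0.02 at 24 h on the log2 scale (SD, n = 3, exact two-sided permutation p = 0.1, which is the lowest possible p with 3 arrays a group). RNA quality, read from the 5' to 3' signal ratio of ACTB, gave 0.723 ± 0.132 at 4 h and 0.697 ± 0.038 at 24 h (SD, n = 3, exact p = 0.9). On the untreated arrays it was 0.893 ± 0.034, with every array above every 24 h array, and replicate 2 of 4 h, at 0.871, was within the untreated range of 0.855 to 0.922. The spike transcripts thus differed between the treated times while the ACTB ratios overlapped, and their part in the results was not tested.

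**Figure D1:**
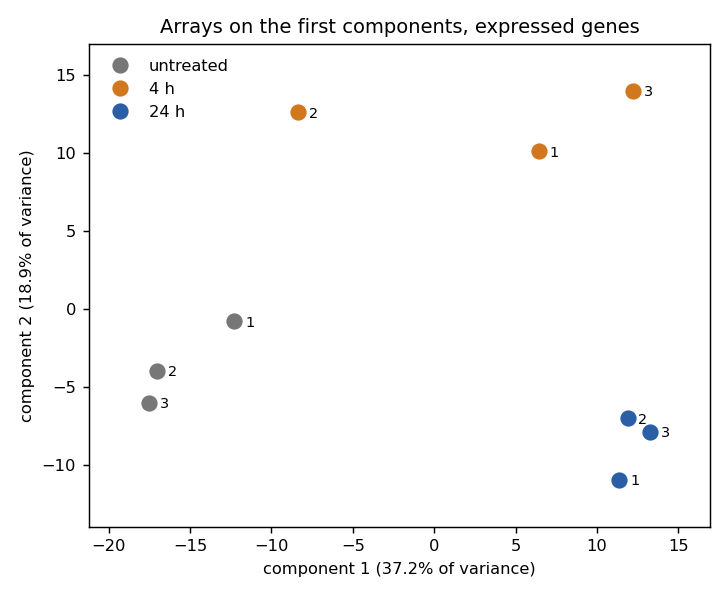
Position of each of the 9 arrays on the first and second principal components of the expressed genes, in component units, coloured by group and numbered by replicate. The second component separates the 4 h arrays, between 10.1 and 14.0, from the 24 h arrays, between -11.0 and -7.02, and replicate 2 of 4 h lies apart on the first.

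Between 4 h and 24 h the chemokine gene CXCL8, the NF-kB inhibitor gene TNFAIP3 and the immediate-early gene EGR1 fell, as did CCN2, ALDH1A3 and IL1B, and the sterol synthesis genes MSMO1 and SQLE and the heme oxygenase gene HMOX1 rose. In all 25 of the 8838 expressed genes passed the threshold (adjusted p under 0.05, 0.283% of those tested). Only 4 were higher at 24 h (0.0453%) and 21 were lower (0.238%). At an unadjusted p under 0.05 there were 1306 genes (14.8%). The arrays of both times did not overlap in 1915 expressed genes (21.7%), of which 987 were higher at 24 h (11.2%) and 928 were lower (10.5%). Most genes barely moved: the median log2 change was 0.0054, with the 5th percentile at -0.41 and the 95th at 0.36, and 51.0% of the genes lay above 0. Among those that moved most, 3 were at least 2-fold higher (0.0339%) and 11 at least 2-fold lower (0.124%). For comparison, 44 expressed genes passed at 4 h against untreated (0.498%), 41 higher (0.464%) and 3 lower (0.0339%), and 80 passed at 24 h against untreated (0.905%), 38 higher (0.43%) and 42 lower (0.475%).

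By the ratio above, 6 of the 25 genes returned to the untreated level (CXCL8, TNFAIP3, CD274, BCL2A1, SERTAD1 and C3orf52), and EGR1 returned in part. The level at 24 h had passed the untreated one in 9 genes: CCN2, STC2, EFNB2, MCL1, PTX3 and IRX2 went from means above it to means below it, and MSMO1, HMOX1 and ARHGAP5-AS1 from below it to above it. Of these 9 only CCN2 passed at 4 h against untreated and only MSMO1 at 24 h against untreated, and for IRX2 and ARHGAP5-AS1 the interval at 24 h held 0, so most of these crossings are differences of means that did not pass. For 8 genes the change was new (ALDH1A3, ACOX2, HHIP, IL1B, FPR1, MOK and CCDC117 lower, SQLE higher), and LYPD1 continued its earlier direction. All of the return genes were lower at 24 h than at 4 h. The higher genes were thus 3 that passed the untreated level and 1 new late change.

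How many genes passed depended on the model. Fitted and adjusted over the expressed genes alone, an alternative that leaves the dimmer genes out of the spread estimate and of the correction, 306 genes passed (3.46%), 120 higher (1.36%) and 186 lower (2.1%), and all 25 were among them. Their classes were 54 returns, 20 partial returns, 86 beyond the untreated level, 104 new late changes and 42 continued changes. Leaving out arrays cut the other way: of the 25 calls, 14, 7 and 9 held without untreated replicate 1, 2 and 3, 6, 9 and 10 without replicate 1, 2 and 3 of 4 h, and 6, 6 and 7 without replicate 1, 2 and 3 of 24 h. CXCL8, CCN2, MSMO1, ALDH1A3 and TNFAIP3 held in each of the 9 runs. The direction of all 25 held too, but the arrays of the treated times did not overlap in any of them. Leaving out 1 array therefore could not turn a direction. The calls of C3orf52, CCDC117, EFNB2, IRX2, MCL1, PTX3, SQLE and ARHGAP5-AS1 held in none of the 9. Those of BCL2A1, EGR1, FPR1, HHIP, MOK and SERTAD1 held in 1 each. Without replicate 2 of 4 h, the array that stood apart, 9 calls held. They were CXCL8, CCN2, MSMO1, ALDH1A3, TNFAIP3, STC2, IL1B, CD274 and HMOX1, and all 25 genes kept their class. In other runs classes changed: CCN2 became a return in 3 runs, FPR1 passed beyond the untreated level in 3, ARHGAP5-AS1 became a return in 3, and IRX2 (a return) and CCDC117 (beyond the untreated level) changed in 1 each. With class limits of 1/3 CCN2, IRX2 and ARHGAP5-AS1 were returns and MSMO1 a new late change, and with the mean over probe sets MCL1 was a partial return and STC2 a new late change.

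**Figure D2:**
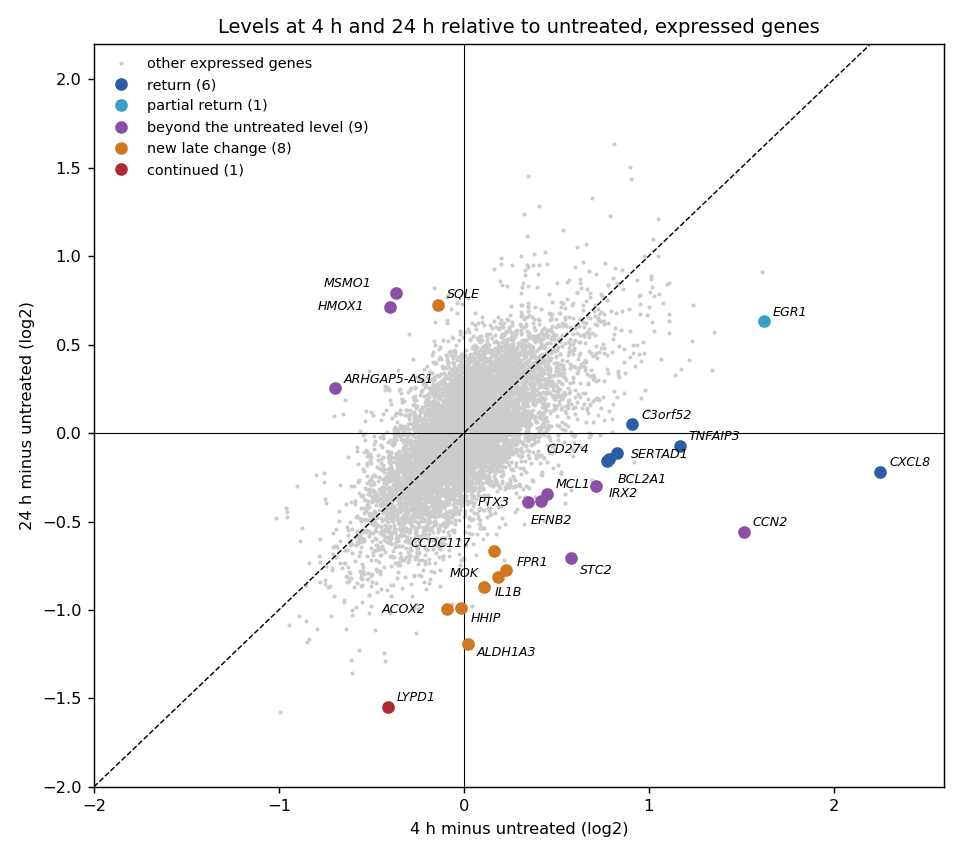
Each expressed gene by its log2 difference at 4 h from untreated (horizontal) and at 24 h from untreated (vertical), with the genes past the threshold for 24 h against 4 h named and coloured by class. On the dashed line both times are equal, so the 21 lower genes lie under it and the 4 higher ones above it, and the 6 return genes lie near the horizontal line through 0.

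CXCL8, which encodes a chemokine that attracts neutrophils and is a classical NF-kB target, had the largest difference of the expressed genes. It measured 148.9, 103.6 and 126.2 on the untreated arrays, 695.2, 612.5 and 664.6 at 4 h, and 121.5, 94.2 and 101.5 at 24 h. The 4 h arrays were all far above the rest, and the 24 h arrays overlapped the untreated ones. Its level fell by 2.47 ± 0.15 SE on the log2 scale from 4 h to 24 h (5.55-fold lower, adjusted p = 0.000456). At 24 h it differed from untreated by -0.22, with a 95% interval from -0.55 to 0.11. TNFAIP3, the ubiquitin-editing enzyme A20 that shuts off NF-kB signalling, followed the same course at a lower level, with 224.4, 236.5 and 225.0 at 4 h and 90.6, 78.2 and 95.1 at 24 h against 85.8, 104.2 and 89.6 untreated. It fell by 1.24 ± 0.12 SE (adjusted p = 0.00662), and its 24 h level differed from untreated by -0.07 (95% interval -0.34 to 0.20). An interval that holds 0 does not show that the levels were equal.

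CD274, the immune checkpoint ligand PD-L1, measured 124.5, 112.6 and 107.3 untreated, 222.8, 187.5 and 219.6 at 4 h, and 103.8, 106.6 and 96.3 at 24 h, so that every 24 h array lay below the untreated ones. Its fall was 0.93 ± 0.12 SE (adjusted p = 0.0266), and the interval of its difference from untreated at 24 h was -0.41 to 0.12. BCL2A1, an anti-apoptotic BCL2 relative, measured 142.0, 148.5 and 135.8 at 4 h and 62.8, 65.9 and 72.1 at 24 h against 72.3, 69.7 and 88.4 untreated (log2 change -0.93 ± 0.12 SE, adjusted p = 0.0266). SERTAD1, a transcriptional coregulator, measured 451.2, 445.7 and 352.7 at 4 h and 215.4, 200.7 and 208.6 at 24 h, beside 227.7, 210.6 and 242.0 untreated (log2 change -0.94 ± 0.13 SE, adjusted p = 0.0301). C3orf52 fell by 0.86 ± 0.12 SE (adjusted p = 0.0378), from 333.0, 372.5 and 315.9 to 174.8, 173.9 and 191.2, within the untreated range of 159.5 to 196.1. For all 6 genes the interval of the 24 h level against untreated held 0. That adds little to the class, since a return was defined by a 24 h level near the untreated one. With the mean over all probe sets of a gene in place of the brightest, the calls of CD274 (log2 change -0.55, adjusted p = 0.195) and C3orf52 (-0.52, adjusted p = 0.157) were lost.

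The stretches before the start sites of CXCL8, TNFAIP3 and CD274 are shown because these return genes hold NF-kB letters there, and that of CCN2, which took another course, because it holds TEAD letters. They are the 150 bases before the RefSeq start in GRCh38.p14, on the strand of the gene, and the array itself names no build. CXCL8 is at chr4:73740419-73740568 (plus strand), TNFAIP3 at chr6:137867109-137867258 (plus), CD274 at chr9:5450392-5450541 (plus) and CCN2 at chr6:131951373-131951522 (minus), all upstream of the annotated transcript. Capitals mark matches to GGNNTTTCC on either strand (a form of the NF-kB element) in the first 3, in CXCL8 also TGANTCA (AP-1), and in CCN2 GGAATG (the TEAD element, on either strand).
CXCL8: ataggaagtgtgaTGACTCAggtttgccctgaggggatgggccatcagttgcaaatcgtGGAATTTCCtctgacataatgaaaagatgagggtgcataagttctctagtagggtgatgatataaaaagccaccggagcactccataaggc
TNFAIP3: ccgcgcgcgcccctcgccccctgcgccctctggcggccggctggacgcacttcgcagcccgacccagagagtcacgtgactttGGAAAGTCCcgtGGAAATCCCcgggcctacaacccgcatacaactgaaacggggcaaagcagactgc
CD274: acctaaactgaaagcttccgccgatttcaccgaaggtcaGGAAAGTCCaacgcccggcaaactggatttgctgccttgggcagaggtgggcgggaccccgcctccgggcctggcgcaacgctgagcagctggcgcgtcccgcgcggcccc
CCN2: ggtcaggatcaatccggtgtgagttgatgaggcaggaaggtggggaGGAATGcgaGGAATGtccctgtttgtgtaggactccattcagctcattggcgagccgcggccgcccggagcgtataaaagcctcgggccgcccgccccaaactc

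In the 250 bases before the start, the NF-kB letters matched once in CXCL8 (starting 91 bases before the start) and in CD274 (111 bases) and at 2 places in TNFAIP3 (67 and 55 bases). Of the 21 promoters found for 19 of the called lower genes, those 3 held a match (14.3%), against 5.48% of all 35116 promoters in the table and 5.96% of those of expressed genes. The other return genes, BCL2A1, SERTAD1 and C3orf52, were not among the matches, and a promoter was not found for every called lower gene. CCN2 had 3 matches to the TEAD letters, at 169, 104 and 95 bases, and was the only called lower gene with a match (4.76% of promoters). The share was 11.9% of all promoters and 9.55% of those of expressed genes. The AP-1 letters matched in LYPD1 and CXCL8 (9.52%, against 6.57% of all promoters and 4.45% of those of expressed genes). An antioxidant response element form, TGACNNNGC, matched in LYPD1, EFNB2 and CCDC117 (14.3%, against 10.9% of all promoters and 12.0% of those of expressed genes). A sterol element form, TCACNCCAC, matched in 1 of 26 promoters of the cholesterol list (SREBF2) and in 0.883% of all promoters, and the NF-kB letters matched in 3 of those 26 (HMGCS1, TM7SF2 and MVK, 11.5%). The search covered both strands, no match overlapped another in the printed stretches, and a match in letters is neither a bound site nor a cause.

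EGR1, a zinc finger transcription factor of the immediate-early wave, came down only in part. It measured 55.5, 38.8 and 46.8 untreated, 188.8, 166.2 and 176.3 at 4 h, and 72.2, 87.3 and 84.4 at 24 h, with no overlap among the 3 groups. The fall was 0.99 ± 0.13 SE (adjusted p = 0.0301), and the 24 h level stayed 0.63 above untreated (95% interval 0.33 to 0.93). With the mean over its 3 probe sets, 1 of which pointed upward, the change was -0.46 (adjusted p = 0.13). MAFF, a small MAF transcription factor, measured 1579.3, 1076.5 and 1291.6 at 4 h and 821.7, 752.2 and 804.6 at 24 h against 405.3 to 427.5 untreated, and did not pass (log2 change -0.70 ± 0.14 SE, adjusted p = 0.108). NFKBIA, the inhibitor of NF-kB alpha, measured 1350.8, 1516.8 and 1257.2 at 4 h and 939.2, 978.6 and 943.0 at 24 h against 518.8 to 600.9 untreated (-0.52 ± 0.12 SE, adjusted p = 0.143). Both had 24 h arrays between the other groups, with no overlap on either side, and both were among the 38 genes that were higher at 24 h than untreated.

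The 41 genes that were higher at 4 h than untreated had a median log2 difference from untreated of 0.98 at 4 h and 0.52 at 24 h. From 4 h to 24 h 8 of them fell and none rose, and in 13 the interval at 24 h against untreated held 0. The 3 that were lower at 4 h (FUT8-AS1, TMCC3 and RUNX2) had medians of -0.88 and -0.54, and none passed between the 2 times. Seen from the late side, the 38 genes higher at 24 h than untreated had a median of 0.41 at 4 h and 0.88 at 24 h, and 2 of them rose between the times (MSMO1 and SQLE). The 42 lower at 24 h had medians of -0.28 and -0.90, and 7 of them fell between the times (ALDH1A3, LYPD1, ACOX2, HHIP, IL1B, FPR1 and MOK). These sets were chosen on comparisons that share arrays with the one described, so their medians are given side by side without a test.

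Of the 7 expressed inflammatory cytokine and chemokine genes, CXCL8 and IL1B fell and 5 did not pass, where 0.238% of all expressed genes passed as lower. The median log2 change of the 7 was -0.52 against 0.0054 over all expressed genes. All 7 were below 0 and 5 had no overlap in the lower direction (10.5% of all), the others being IL24, LIF and IL1A. IL1A measured a mean of 76.6 ± 10.4 at 4 h and 49.2 ± 11.6 at 24 h (SD, n = 3, adjusted p = 0.323). Of 15 NF-kB subunits and feedback inhibitors, TNFAIP3 fell and 14 did not pass, with a median of -0.13 that was -0.039 without replicate 2 of 4 h, and 7 had no overlap in the lower direction (10.5% of all expressed genes). RELB, a subunit of the noncanonical pathway, measured 136.6, 150.6 and 88.8 at 4 h and 45.4, 77.6 and 68.6 at 24 h (log2 change -0.82 ± 0.24 SE, adjusted p = 0.236). Among 13 immediate-early transcription factors EGR1 fell, 12 did not pass, the median was -0.36, and 8 had no overlap in the lower direction (10.5% of all). Fitted over the expressed genes alone, where 2.1% of all passed as lower, 6 of the 13 did (EGR1, MAFF, JUN, KLF10, ATF3 and JUNB). JUN, a subunit of AP-1, lay at 691.0, 763.6 and 551.4 at 4 h and 441.4, 431.8 and 372.1 at 24 h against 609.2 to 809.4 untreated, so its late level was below the untreated range. NLRP3, an inflammasome sensor, measured 212.3, 141.9 and 138.7 at 4 h and 98.4, 85.2 and 93.2 at 24 h, above its untreated range of 52.8 to 69.9, and did not pass (adjusted p = 0.145).

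**Figure D3:**
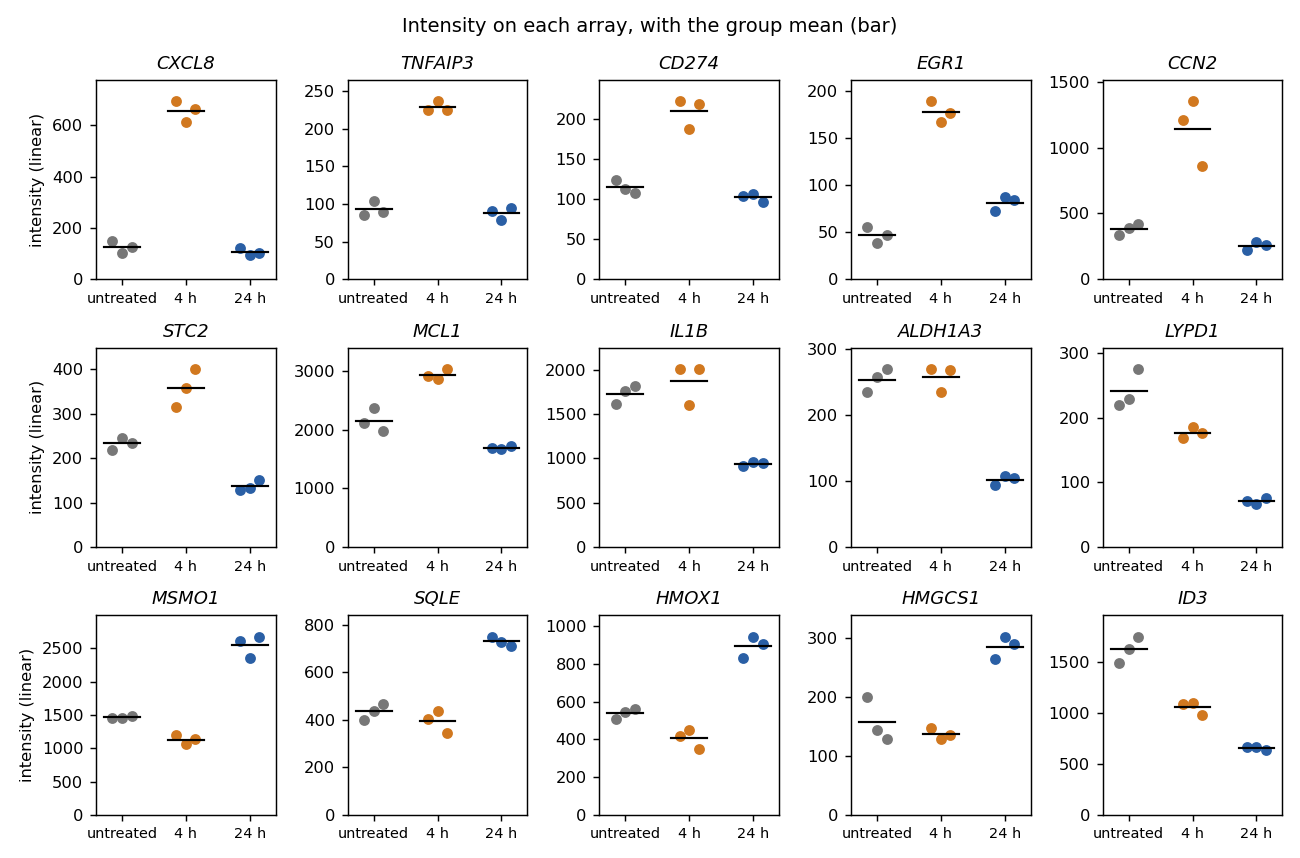
Linear intensity of 15 genes on each of the 9 arrays, by group, with a bar at the group mean and each axis starting at 0. CXCL8, TNFAIP3 and CD274 are high at 4 h only, CCN2, STC2 and MCL1 go from above to below untreated, IL1B, ALDH1A3 and LYPD1 are lowest at 24 h, and MSMO1, SQLE, HMOX1 and HMGCS1 are highest there. HMGCS1 and ID3 did not pass for 24 h against 4 h.

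A second group was above the untreated level at 4 h and below it at 24 h. CCN2, connective tissue growth factor, a matricellular protein and a standard YAP/TEAD target, measured 339.3, 387.9 and 422.9 untreated, 1208.1, 1352.3 and 860.9 at 4 h, and 220.6, 284.1 and 262.8 at 24 h. No array of one group overlapped another. It fell by 2.07 ± 0.18 SE (4.20-fold lower, adjusted p = 0.00662), and its 24 h level was 0.56 below untreated (95% interval -0.96 to -0.15, adjusted p = 0.175). STC2, the secreted glycoprotein stanniocalcin 2, measured 218.7, 244.9 and 234.8 untreated, 314.1, 358.6 and 400.5 at 4 h, and 128.1, 131.9 and 150.2 at 24 h (log2 change -1.29 ± 0.13 SE, adjusted p = 0.00671). Without replicate 1 of 24 h its adjusted p was 0.0506.

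EFNB2, the Eph receptor ligand ephrin B2, fell by 0.80 ± 0.11 SE (adjusted p = 0.0301), from 651.9, 585.6 and 613.0 at 4 h to 338.7, 355.3 and 344.7 at 24 h, below its untreated range of 424.9 to 486.9. MCL1, an anti-apoptotic BCL2 family member, fell by 0.79 ± 0.11 SE (adjusted p = 0.0356), from 2921.3, 2856.7 and 3033.8 to 1678.6, 1662.4 and 1725.5 against 1971.1 to 2363.9 untreated. The call rests on its brightest probe set: 3 of its 6 probe sets moved upward, and the mean over all gave -0.09 (adjusted p = 0.883). IRX2, a homeobox transcription factor near the expression minimum, measured 69.9, 99.3 and 93.6 at 4 h and 38.2, 35.6 and 30.9 at 24 h (log2 change -1.02 ± 0.14 SE, adjusted p = 0.0356). PTX3, a soluble pattern recognition pentraxin, was chosen after its values were seen, because it passed but lay outside the naming rule. It measured 994.9, 1007.8 and 1031.7 at 4 h and 567.3, 573.2 and 657.7 at 24 h against 768.0 to 807.5 untreated (log2 change -0.74 ± 0.11 SE, adjusted p = 0.0424). With the mean over probe sets the calls of STC2 (-0.76, adjusted p = 0.0692) and IRX2 (-0.57, adjusted p = 0.0797) were lost.

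Of the 16 expressed YAP/TEAD targets only CCN2 fell (0.238% of all) and 15 did not pass. The median log2 change of the 16 was -0.28, and 6 had no overlap in the lower direction (10.5% of all). In the fit over expressed genes 6 passed as lower (2.1% of all): CCN2, F3, DLC1, GADD45B, AMOTL2 and CCN1. AMOTL2, an angiomotin that binds YAP, measured 1027.6, 1123.8 and 878.7 at 4 h and 603.1, 654.9 and 700.8 at 24 h, within reach of its untreated 607.5 to 707.3 (log2 change -0.61 ± 0.13 SE, adjusted p = 0.117 over all genes). CCN1, a matricellular relative of CCN2, measured 1678.6, 1859.8 and 1635.5 and then 1203.7, 1015.2 and 1181.5, against 955.9 to 1156.6 untreated (-0.60 ± 0.13 SE, adjusted p = 0.117). F3, tissue factor, measured 146.7, 187.7 and 197.8 at 4 h but 94.9, 67.1 and 94.3 at 24 h, under its untreated range of 145.5 to 151.5 (-0.93 ± 0.15 SE, adjusted p = 0.0613). DLC1, a RhoGAP, lay at 675.7, 636.9 and 763.0 and then at 305.4, 403.1 and 414.9, with 315.1 to 373.2 untreated (-0.87 ± 0.15 SE, adjusted p = 0.0663). These values are from its brightest probe set, and 3 of its 5 probe sets moved upward. The members thus ended at different places relative to untreated, CCN2 and F3 with every 24 h array below the untreated range, AMOTL2 with 1 array just below it and the others within it, and DLC1 with arrays on both sides of it.

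In 7 of the genes that fell the change was new by the ratio. None of them passed at 4 h against untreated, although all 4 h arrays of FPR1 and MOK lay above their untreated ones. ALDH1A3, a retinaldehyde dehydrogenase that makes retinoic acid, measured 235.6, 257.6 and 269.6 untreated, 270.5, 236.1 and 268.4 at 4 h, and 94.7, 107.5 and 104.8 at 24 h. Untreated and 4 h arrays overlapped, and all 24 h arrays were far below both. It fell by 1.21 ± 0.12 SE between the treated times (2.32-fold lower, adjusted p = 0.00662) and differed from untreated by 0.02 at 4 h. IL1B, the cytokine interleukin 1 beta, measured 1609.6, 1759.0 and 1818.5 untreated, 2005.9, 1604.3 and 2009.2 at 4 h, and 913.0, 954.4 and 942.4 at 24 h. Its course thus differed from that of CXCL8: at 4 h it differed from untreated by 0.11 (95% interval -0.17 to 0.39), with replicates 1 and 3 above and replicate 2 below all untreated arrays, and it fell by 0.98 ± 0.13 SE later (adjusted p = 0.0266). FPR1, a receptor for formylated peptides, measured 279.1, 286.7 and 263.0 at 4 h and 111.8, 133.3 and 146.0 at 24 h against 210.0 to 253.5 untreated (2.01-fold lower, 95% interval of the log2 change -1.29 to -0.71, adjusted p = 0.0266).

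ACOX2, a peroxisomal oxidase of branched-chain lipids, measured 410.6, 366.0 and 359.3 at 4 h and 194.0, 187.0 and 202.1 at 24 h, beside 399.7 to 406.6 untreated (log2 change -0.91 ± 0.11 SE, adjusted p = 0.0193). HHIP, which binds and holds back Hedgehog ligands, measured 197.2, 244.3 and 214.3 at 4 h and 104.1, 102.8 and 102.3 at 24 h, with 204.9 to 233.5 untreated (-0.97 ± 0.12 SE, adjusted p = 0.0205). MOK, a kinase related to the MAP kinases, measured 214.5, 206.9 and 194.8 and then 114.5, 84.5 and 87.1 against 168.7 to 184.7 untreated (95% interval of the log2 change -1.29 to -0.71, adjusted p = 0.0266). CCDC117, also chosen after its values were seen because it passed outside the naming rule, was dim at 78.9, 93.4 and 88.5 at 4 h and 41.8, 40.9 and 42.9 at 24 h (-0.83 ± 0.12 SE, adjusted p = 0.0466). All of these 24 h arrays lay below every untreated and 4 h array of the same gene. With the mean over probe sets the calls of ALDH1A3 (-0.68, adjusted p = 0.103), FPR1 (-0.59, adjusted p = 0.358) and CCDC117 (-0.38, adjusted p = 0.23) were lost, while those of HHIP and IL1B held. ACOX2 and MOK have 1 probe set each, so this alternative could not change their values.

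LYPD1, a surface protein with the LY6/uPAR fold, was the 1 called gene that kept its early direction. It measured 219.2, 229.6 and 275.6 untreated, 168.8, 185.4 and 176.3 at 4 h, and 71.8, 67.2 and 76.4 at 24 h, with no overlap between any of the groups. The late step was 1.14 ± 0.12 SE downward (adjusted p = 0.0117) after an early difference of -0.41 ± 0.12 SE that did not pass (adjusted p = 0.218). ID3 and ID1, inhibitors of basic helix-loop-helix factors and direct targets of BMP signalling, had the same shape without passing between the treated times. ID3 measured 1496.7, 1629.0 and 1751.2 untreated, 1092.6, 1098.3 and 980.3 at 4 h, and 664.3, 666.8 and 639.6 at 24 h (log2 change -0.67 ± 0.11 SE, adjusted p = 0.0649). ID1 measured 1407.1, 1146.8 and 1123.0 at 4 h and 731.5, 704.4 and 768.6 at 24 h against 1406.6 to 1583.3 untreated (-0.72 ± 0.13 SE, adjusted p = 0.0753). GADD45A, a growth arrest gene of the p53 list, was similar at 415.9, 544.0 and 539.5 and then 325.8, 330.2 and 331.2 (adjusted p = 0.131).

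None of the 14 expressed TGF-beta and BMP targets passed, their median log2 change was -0.32, 13 were below 0 and 9 had no overlap in the lower direction (10.5% of all). In the fit over expressed genes 5 passed as lower (2.1% of all): ID3, ID1, LTBP3, TGFBI and SMAD7. Of the 3 probe sets of LTBP3, 2 moved upward. TGFBI, a secreted matrix protein, measured 863.3, 701.4 and 750.6 at 4 h and 549.8, 497.4 and 540.9 at 24 h, beneath 795.6 to 910.3 untreated (adjusted p = 0.144 over all genes). None of 19 collagen and fibrillar matrix genes passed, with a median of -0.26 and 8 without overlap in the lower direction (10.5% of all). FN1, fibronectin, measured 1635.3, 1499.8 and 2182.1 at 4 h and 888.5, 1049.2 and 984.6 at 24 h against 1284.3 to 1542.3 untreated (-0.84 ± 0.16 SE, adjusted p = 0.0878). COL13A1, a transmembrane collagen, measured 759.9, 831.8 and 843.3 and then 512.8, 518.3 and 555.8, with 743.9 to 772.7 untreated (-0.60 ± 0.11 SE, adjusted p = 0.0753). These 2 with THBS1 and LOX passed in the fit over expressed genes (2.1% of all as lower). None of 18 SRF/MRTF cytoskeletal targets passed, though CALD1 and SRF did as lower in the fit over expressed genes (2.1% of all). The median of the 18, -0.22, rested on replicate 2 of 4 h, without which it was 0.006.

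The sterol pathway held 2 of the 4 called rises. MSMO1, which removes methyl groups from sterol precursors, measured 1452.8, 1455.1 and 1480.3 untreated, 1199.6, 1058.3 and 1133.8 at 4 h, and 2615.7, 2361.7 and 2676.7 at 24 h. Its 4 h arrays were all below and its 24 h arrays all above the untreated ones. It rose by 1.16 ± 0.11 SE from 4 h to 24 h (2.24-fold, adjusted p = 0.00662), of which the early dip made up a share of 0.32 by the ratio. SQLE, squalene epoxidase, an early oxygen-dependent step of the same pathway, measured 401.3, 439.0 and 345.4 at 4 h and 749.6, 728.8 and 711.0 at 24 h against 400.4 to 468.0 untreated. It rose by 0.86 ± 0.12 SE (adjusted p = 0.0378), and with the mean over its 4 probe sets by 0.62 without passing (adjusted p = 0.0843). Its call held in none of the 9 runs without 1 array. HMGCS1, the synthase at the head of the mevalonate pathway, measured 147.4, 127.9 and 134.7 at 4 h and 264.9, 302.1 and 289.2 at 24 h, outside its untreated range of 128.4 to 199.8, and did not pass (0.98 ± 0.16 SE, adjusted p = 0.0551).

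Among the 18 expressed genes of cholesterol synthesis and uptake 2 rose (0.0453% of all), none fell and 16 did not pass. Their median log2 change was 0.47 from 4 h to 24 h, after -0.02 from untreated to 4 h, and 11 had no overlap in the higher direction, where 11.2% of all expressed genes had none. In the fit over expressed genes 7 passed as higher (1.36% of all): MSMO1, SQLE, HMGCS1, IDI1, INSIG1, DHCR7 and SC5D. INSIG1, which holds the SREBP escort protein in the endoplasmic reticulum, measured 502.8, 377.6 and 456.8 at 4 h and 738.3, 698.1 and 737.0 at 24 h against 359.3 to 380.6 untreated (adjusted p = 0.0809 over all genes). IDI1, an isomerase of the isoprenoid branch, lay at 573.3, 687.8 and 600.9 and then at 1306.2, 1101.7 and 1030.7 (adjusted p = 0.0809). PMVK was the 1 member lower at 24 h without overlap. Of 11 fatty acid synthesis genes none passed, with a median of 0.25 and 7 higher without overlap (11.2% of all). In the fit over expressed genes SCD, LPIN1 and ME1 passed as higher (1.36% of all). SCD, stearoyl-CoA desaturase, measured 426.7, 503.5 and 457.1 at 4 h and 620.6, 721.7 and 713.1 at 24 h, near its untreated 608.4 to 645.7 (0.55 ± 0.12 SE, adjusted p = 0.117).

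HMOX1, heme oxygenase 1, which breaks heme down and is an NRF2 target, measured 507.6, 547.6 and 558.9 untreated, 419.3, 448.4 and 350.3 at 4 h, and 830.3, 944.8 and 904.1 at 24 h. The 3 groups did not overlap. It rose by 1.11 ± 0.13 SE (2.16-fold, adjusted p = 0.0153), the 24 h level being 0.71 above untreated (95% interval 0.430 to 0.997, adjusted p = 0.0502). It was the only one of 10 expressed genes of heme breakdown and iron to pass (0.0453% of all passed as higher). The median of that list was 0.16, but 0.05 under quantile normalization and 0.078 without replicate 2 of 4 h. Fitted over the expressed genes alone, HMOX1, BLVRB and SLC48A1 passed as higher (1.36% of all). BLVRB, biliverdin reductase B, measured 478.8, 491.8 and 504.9 at 4 h and 821.0, 781.7 and 689.4 at 24 h and did not pass (0.62 ± 0.11 SE, adjusted p = 0.0806). HMOX1 was counted in that list and not among the NRF2 targets. None of the 21 other NRF2 targets passed, 12 were higher without overlap (11.2% of all expressed genes) and the median was 0.27. SQSTM1, the autophagy receptor p62, measured 3586.8, 4017.9 and 3351.3 at 4 h and 5520.2, 5610.9 and 5615.2 at 24 h against 3604.7 to 4191.6 untreated (0.61 ± 0.12 SE, adjusted p = 0.0938). These values are from its brightest probe set, and 3 of its 5 probe sets moved downward. In the fit over expressed genes SQSTM1, PIR, AKR1C2, AKR1C3 and PGD passed as higher (1.36% of all). ARHGAP5-AS1, a noncoding RNA antisense to ARHGAP5, was the other called riser, at 34.0, 23.3 and 27.0 at 4 h and 72.1, 68.7 and 65.8 at 24 h against 48.1 to 64.1 untreated (0.95 ± 0.13 SE, adjusted p = 0.0356). Its 4 h values lay near the pseudocount, and its call held in none of the 9 runs without 1 array.

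Genes of protein degradation were mostly higher at 24 h by small differences, none of which passed in the main fit. In the fit over expressed genes, where 1.36% of all passed as higher, 3 proteasome genes did (PSMB6, PSMB2 and PSMC2). So did NEU1 of the lysosomal list and WIPI1 and MAP1LC3B of the autophagy list. All 27 expressed proteasome genes were above 0, against 51.0% of all expressed genes, with a median log2 change of 0.26, and 16 were higher without overlap (11.2% of all). PSMB6, a catalytic beta subunit, measured 1712.4, 1458.5 and 1792.7 at 4 h and 2383.5, 2519.0 and 2434.5 at 24 h against 1560.2 to 1661.5 untreated (0.56 ± 0.12 SE, adjusted p = 0.108). PSMC2, an ATPase of the regulatory particle, measured 3736.3, 3276.8 and 3912.2 and then 5056.8, 4522.1 and 5177.5 (0.43 ± 0.12 SE, adjusted p = 0.201). The median of the list was 0.15 under quantile normalization and 0.19 without replicate 2 of 4 h. Of 19 lysosomal hydrolases and membrane proteins 17 were above 0 (median 0.24, 8 higher without overlap, 11.2% of all), led by NEU1, the lysosomal sialidase, at 375.1, 402.9 and 368.8 and then 507.4, 512.2 and 498.1 (adjusted p = 0.198). Of 26 autophagy genes 22 were above 0 (median 0.15, 8 higher without overlap, 11.2% of all). WIPI1, which acts early in autophagosome formation, measured 319.4, 248.3 and 258.2 at 4 h and 444.0, 420.7 and 414.7 at 24 h (adjusted p = 0.114).

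**Figure D4:**
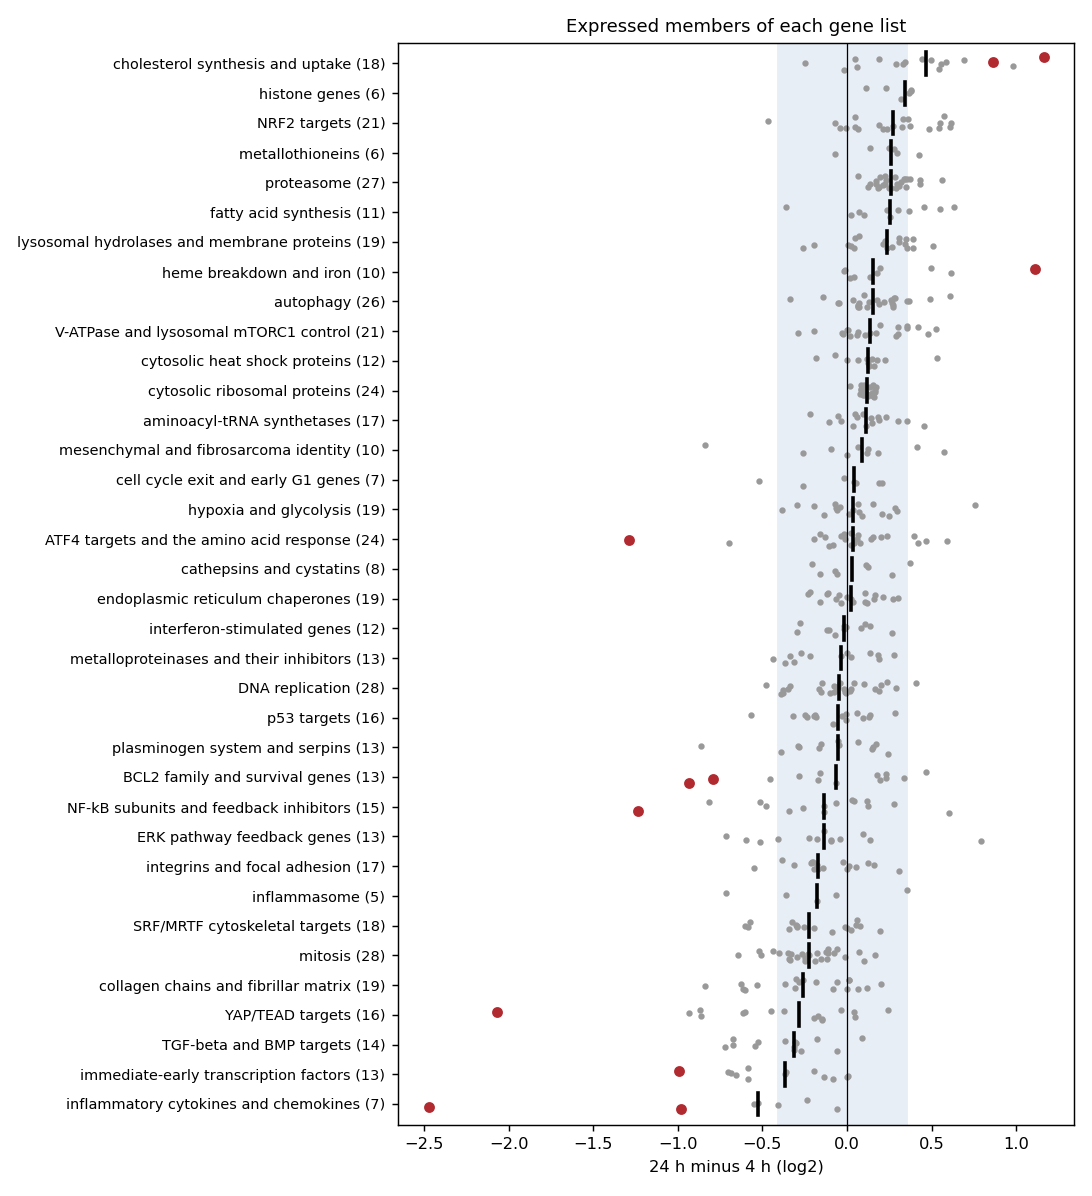
Log2 change from 4 h to 24 h of the expressed members of each gene list with at least 5 of them, the number of members in brackets, red for genes past the threshold and a bar at the median. The shaded band spans the 5th to the 95th percentile of all expressed genes, -0.41 to 0.36, and the medians run from -0.52 for inflammatory cytokines and chemokines to 0.47 for cholesterol synthesis and uptake.

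No transcript of a protease or protease inhibitor on the following lists passed between the 2 times. Of 13 metalloproteinases and their inhibitors and 8 cathepsins and cystatins none passed, in either fit, and their median log2 changes were -0.04 and 0.03 (the latter 0.09 without replicate 2 of 4 h). MMP1, interstitial collagenase, measured 341.6, 296.4 and 350.0 at 4 h and 269.3, 245.4 and 256.1 at 24 h (-0.34 ± 0.11 SE, adjusted p = 0.309). MMP14, the membrane-bound collagenase, had means of 310 ± 81 at 4 h and 303 ± 7 at 24 h against 404 ± 26 untreated (SD, n = 3, adjusted p = 0.998 for 24 h against 4 h). CTSB, cathepsin B, had 1383 ± 249 and 1302 ± 90 against 2089 ± 28 (SD, n = 3, adjusted p = 0.8998). For both, the 24 h mean was closer to the 4 h mean than to the untreated one. CST3, cystatin C, a secreted inhibitor of cathepsins, measured 411.9, 645.7 and 391.1 at 4 h and 444.8, 380.8 and 393.4 at 24 h against 820.3 to 918.5 untreated, and its sign between the times turned without replicate 2 of 4 h.

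Mitotic genes were mostly lower and histone genes higher at 24 h, without any member passing. Of 28 mitotic genes 25 were below 0, with a median log2 change of -0.23 and 10 lower without overlap, where 10.5% of all expressed genes had none. KIF20A, a kinesin of the central spindle, measured 585.0, 434.5 and 512.5 at 4 h and 370.5, 402.9 and 290.4 at 24 h against 427.3 to 519.4 untreated (adjusted p = 0.275). All 24 ribosomal protein genes were above 0 at a median of 0.12, a direction that turned under quantile normalization, where it was -0.02, and it was 0.044 without replicate 2 of 4 h. All 6 expressed histone genes were above 0 (median 0.34), and probe sets of such families may share signal between paralogs.

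Several further genes with higher values at 24 h came close to the threshold without passing it. ARRB1, the signalling adaptor beta-arrestin 1, measured 90.9, 90.1 and 104.2 at 4 h and 179.7, 155.2 and 185.9 at 24 h against 95.1 to 107.2 untreated (log2 change 0.77 ± 0.12 SE, adjusted p = 0.0528). GCNT3, a glycosyltransferase of mucin-type chains, had the same adjusted p at 148.3, 140.7 and 120.3 and then 300.4, 230.7 and 250.4. GULP1, an engulfment adaptor, measured 451.6, 466.3 and 572.4 and then 911.2, 955.3 and 894.8, and had already been above its untreated 338.7 to 433.3 at 4 h (adjusted p = 0.0551). Not all probe sets rose: 1 of 7 for ARRB1 and 2 of 5 for GULP1 moved downward. DUSP4, a phosphatase that switches off MAP kinases, had the mirror course of the return genes: 870.3, 1079.3 and 1064.5 untreated, 648.2, 625.6 and 558.6 at 4 h, and 1022.8, 1115.0 and 1071.0 at 24 h (0.79 ± 0.13 SE, adjusted p = 0.0551). CAB39L, ADGRE1 and ST3GAL6 completed the 12 higher genes named by the rule, with adjusted p of 0.0587, 0.0596 and 0.0663. At the edge of the threshold PTX3 and CCDC117 lay just inside and FAM20C (adjusted p = 0.0507) and ITPRIP (0.0526) just outside.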

How the data were processed

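RNA of HT1080 cells was measured on 9 Affymetrix arrays with 1 colour and 54675 probe sets, 3 arrays each for vehicle, 4 h and 24 h of inhibitor mix, grouped by title. The deposited values are linear intensities, 1 per probe set and array; RMA and R 2.9.2 appear in the submitters' processing notes with no role stated. The software that summarised the probes was not given in the sources used here, and no detection calls were used. Each array's mean after trimming 2% at each end was 100, which removes any change in total messenger RNA. Control probe sets (62) were left out. Of the rest, 41091 name 1 gene in the platform annotation, 1801 several and 11721 none; 41037 matched the RefSeq gene table. Each of the 19775 genes was represented by its brightest probe set, and 10937 below a mean of 50 were fitted but not reported on.

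Values were transformed as log2(intensity + 16) and fitted by lmFit and eBayes of limma 3.58.1 under R 4.3.3, with 1 mean per group over 9 arrays, two-sided, with Benjamini-Hochberg adjustment over all 19775 genes and a threshold of 0.05. Adjusted p-values come from this model unless another fit is named beside them, and those fits use limma too. The model was also tested on simulated data. Their noise was independent for each gene, without a shift of a whole array, so that test does not cover an array that stands apart. Array measures were compared by exact permutation. The members and gene lists were chosen with earlier results of these data known, so list counts are descriptions without a set test. Named genes are, in each direction, the 12 with the largest change that passed and had no overlap (filled by smallest p), the 3 members of each list and up to 6 genes of each class with the smallest p, and CXCL8, TNFAIP3, IL1B, HMOX1 and MSMO1. A few other list members, and those lost or kept by an alternative, are named with their values as examples chosen after seeing them. Alternatives were other normalizations, pseudocounts, gene summaries, filters, samples in the fit, a replicate block, an intensity trend, other class limits and leaving out each array. The series calls the replicates biological, and nothing says that replicate numbers mark shared cultures. Across groups, arrays of the same number had deviations from their group means that correlated at -0.21 to 0.15, and those of different numbers at -0.16 to 0.32. Between 4 h and 24 h the same-number values were 0.043, 0.092 and 0.143, above all others, at -0.112 to 0.026. Values this small do not settle whether the numbers pair the arrays, and the main fit does not pair them. Promoter stretches are RefSeq's for GRCh38.p14.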

Additional observations from a re-analysis of the deposited data

Results flagged for a closer look

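The poly-A spike-in controls, which entered no gene-level comparison, had a mean log2 intensity of 9.31 ± 0.07 on the untreated arrays, 10.20 ± 0.22 at 4 h and 10.64 at 24 h (SD of 0.02, n = 3). They were singled out as a signal outside the main measurement that lay above the untreated level. The difference between the treated times was 0.43 (exact permutation p = 0.1, the smallest possible), and its part in the results was not tested.

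Probe set 1555673_at names several genes in the platform annotation and so entered no gene-level comparison. It measured 862 ± 6 untreated, 1619 ± 217 at 4 h and 246 ± 19 at 24 h (SD, n = 3). In a limma fit over all 54675 probe sets its log2 change from 4 h to 24 h was -2.63 ± 0.14 SE (adjusted p = 0.0002213). It was the 1 called among 1888 probe sets with several genes or none and a mean of 50 or more, and its 24 h level was 1.75 below untreated on the log2 scale. It is named by its probe set because the annotation does not settle the gene.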

How the results depend on the processing

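Against 4 higher and 21 lower genes (6 returns, 1 partial return, 9 beyond the untreated level, 8 new late changes and 1 continued change), the counts in that order were 7 and 23 (6, 1, 10, 11, 2) with quantile normalization, 5 and 12 (4, 0, 6, 6, 1) with median centring, and 5 and 18 (6, 0, 6, 6, 5) with the mean over probe sets. Higher genes were 29.4% of the calls with median centring and 16% in the main setting. A pseudocount of 1 gave 1 and 6 (2, 0, 3, 1, 1), and 64 gave 101 and 127 (47, 10, 64, 81, 26). The fit over expressed genes gave 120 and 186 (54, 20, 86, 104, 42) and the intensity trend 85 and 111 (34, 7, 51, 72, 32). The 24 h and 4 h arrays alone gave 0 and 1 (1, 0, 0, 0, 0). An expression minimum of 25 gave 4 and 23, and one of 100 gave 3 and 18. Class limits of the ratio at 1/3 gave 9, 1, 5, 9 and 1. The replicate block gave 0 and 3 (1, 0, 2, 0, 0). CXCL8, CCN2 and STC2 stayed called, and whether the replicate numbers pair the arrays is not settled. Leaving out 1 array gave 1 to 3 higher and 5 to 13 lower genes, with 2 to 4 returns, 0 to 1 partial returns, 1 to 4 beyond the untreated level, 1 to 6 new late changes and 0 to 2 continued changes. The cause of these differences was not tested beyond what each setting changes.

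All 25 calls kept their direction in every setting, but only the other normalizations and the mean over probe sets could have turned it. The remaining settings left the log2 change as it was or could not turn it, because the arrays of the treated times did not overlap. Of the 25 calls, 24 held with quantile normalization, 16 with median centring, 15 with the mean over probe sets and 7 with a pseudocount of 1. The mean over probe sets leaves the values of a gene with a single probe set unchanged, as for CCN2, MSMO1 and HMOX1. Among all 129 named genes, 951 values under the alternatives stayed on the same side of the threshold and in direction, 131 passed newly, 74 no longer passed and 5 turned. With 1 array left out these numbers were 1026, 1, 133 and 1. Most named genes had not passed in the main fit and so had no call to lose. The 74 and 133 losses thus all fell on called genes. Those that turned, none of them called, were PRSS23 (-0.2015), SARS1 (-0.0507), YARS1 (-0.037) and BCL2L11 (-0.0328) with the mean over probe sets, RPS25 (-0.0051) with quantile normalization, and CST3, whose change ran from -0.3364 to 0.014 with 1 array left out and turned without replicate 2 of 4 h. Signal over background limits the dim genes, since no detection call separates values near the pseudocount from background.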

Other observations

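Below the expression minimum 3 more genes passed for 24 h against 4 h. GPR84, a receptor for medium-chain fatty acids, measured 25.5, 20.7 and 20.5 untreated, 55.2, 70.9 and 56.6 at 4 h, and 11.8, 10.4 and 20.3 at 24 h (log2 change -1.36 ± 0.15 SE, limma adjusted p = 0.0153). PTGS2, the inducible cyclooxygenase of prostaglandin synthesis, measured 57.2, 51.5 and 54.9 at 4 h and 5.7 to 18.2 at 24 h, against 13.9, 18.2 and 25.9 untreated (-1.38 ± 0.18 SE, adjusted p = 0.0293). Both were thus high at 4 h, with 24 h values below the mean of the untreated arrays. OSER1-DT, a divergent noncoding transcript, measured 4.1 to 5.7 at 4 h and 21.2 to 32.0 at 24 h (0.98 ± 0.13 SE, adjusted p = 0.0287), close to the pseudocount.

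Other gene lists showed few calls, where 0.238% of all expressed genes passed as lower and 0.0453% as higher. Of 13 BCL2 family and survival genes BCL2A1 and MCL1 fell, the latter called from its brightest probe set while 3 of its 6 probe sets moved upward, and 11 did not pass (median log2 change -0.06, but 0.121 without replicate 2 of 4 h). Of 24 ATF4 targets STC2 fell and 23 did not pass (median 0.03). ASNS, asparagine synthetase, measured 763.3, 691.3 and 652.4 at 4 h and 1031.7, 1111.1 and 1052.1 at 24 h (adjusted p = 0.0858), whereas SESN2 measured 328.5, 430.2 and 378.9 and then 227.6, 245.6 and 207.6 (adjusted p = 0.106). For ASNS 1 of its 2 probe sets moved downward. No member passed among 17 aminoacyl-tRNA synthetases (median 0.11), 19 endoplasmic reticulum chaperones (0.02), 12 cytosolic heat shock proteins (0.13), 21 V-ATPase and lysosomal mTORC1 genes (0.14) or 6 metallothioneins (0.26). None passed either among 28 DNA replication genes (median -0.05), 16 p53 targets (-0.06), 19 hypoxia and glycolysis genes (0.03), 12 interferon-stimulated genes (-0.02), 17 integrin and focal adhesion genes (-0.17), 13 plasminogen system genes and serpins (-0.06), 13 ERK feedback genes (-0.14), 5 inflammasome genes (-0.18) and 7 cell cycle exit genes (0.04). In the fit over expressed genes, where 3.46% of all passed, further members of these lists did so. They were ASNS, SARS1, ATP6V0B, MT1H, PFKFB4 and DUSP4 as higher and SESN2, GADD45A, PXN, SERPINH1, DUSP5 and NLRP3 as lower. Without replicate 2 of 4 h the medians were 0.057 for the synthetases, 0.063 for the chaperones, -0.085 for the ERK feedback genes, 0.023 for the cell cycle exit genes, -0.002 for the hypoxia genes and 0.021 for the interferon-stimulated genes. The sign also turned under quantile normalization for the chaperones (-0.032), hypoxia genes (-0.025) and interferon-stimulated genes (0.024), with median centring for the last (0.018), and with the mean over probe sets for the cell cycle exit genes (-0.049).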
